A study of Mus musculus with 7 samples.

Results

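The RNA of 9 genes used as markers of lipid-associated and repair macrophages was followed in the myocardium of mice with and without myocardial infarction (MI). The genes were Trem2, Mertk, Cd9, Cd63, Gpnmb, Spp1, Apoe, Lgals3 and Fabp5. They were chosen by name as genes of phagocytic and repair macrophages, with earlier results of these data known. All 9 were found among the 56980 genes of the table. After an infarct, monocytes enter the heart and mature into macrophages that engulf dead cells, digest their lipids in lysosomes and support the formation of the scar. Lipid-associated macrophages, known from fat tissue, atherosclerotic plaques and injured organs, carry the receptor Trem2 and make Spp1, Gpnmb, Cd9, Fabp5 and Cd63. Mertk marks macrophages that clear apoptotic cells. None of these genes is restricted to macrophages.

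The study sequenced total RNA from the myocardial tissues of 7 male wild-type C57BL/6J mice, an inbred laboratory strain, which were 8 weeks old when obtained and were kept for 1 week before surgery. The left coronary artery was ligated in 3 of them (MI mice), which were killed 4 days later. The other 4 underwent the operation without ligation (sham-operated mice). Each mouse gave 1 library, and the zone of the heart that was sampled is not named in the labels. Library depth was 19977712 to 23473543 fragments in the sham-operated mice and 21781015 to 23610869 fragments in the MI mice. Values are FPKM, the fragments counted on a gene relative to its length and to the fragments of the library. In such bulk tissue, fewer cells of a type and less RNA per cell cannot be told apart, nor can more cells and more RNA per cell.

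MI replicate 2 stood apart from the other MI mice. Its Pearson's r with the sham-operated mice was 0.984 to 0.987, while MI replicate 1 gave 0.878 to 0.881 and MI replicate 3 gave 0.903 to 0.906. These correlations run across the tested genes, and genes are no independent replicates. The geometric mean FPKM of 10 general macrophage markers, which include Adgre1, Csf1r, Cd68 and Lyz2 and none of the genes studied here, was 3.37, 3.27, 2.60 and 3.02 in sham replicates 1 to 4. It was 16.7 in MI replicate 1, 3.37 in MI replicate 2 and 13.6 in MI replicate 3. Summed FPKM of 8 fibroblast markers, such as Col1a1 and Postn, was 135.9 to 166.2 in the sham-operated mice and 2472, 250.5 and 1926 in MI replicates 1 to 3. MI replicate 2 was thus at the upper edge of the sham range for macrophage markers and above it for fibroblast markers. The deposited values do not settle whether the tissue of this mouse, labelled MI, was infarcted, so means, SDs, folds and tests that include it may not describe infarcted myocardium alone. Results without MI replicate 2 are therefore given as well.

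Promoters are shown for the 3 genes whose 250 bases before a transcription start held the letters GAGGAAG, read on either strand, which the macrophage factor PU.1 can bind. RefSeq promoter windows on build GRCm38.p6 were found for 8 of the 9 genes, 11 windows in all, and Fabp5 is only named. These letters were in 10.6% of the 32851 mouse windows of the same length. All 3 windows lie on the plus strand and run 5′ to 3′, with the matched letters in capitals. The Trem2 window is chr17:48346151-48346400, the Spp1 window chr5:104434861-104435110 and the Cd63 window chr10:128909095-128909344.
Trem2: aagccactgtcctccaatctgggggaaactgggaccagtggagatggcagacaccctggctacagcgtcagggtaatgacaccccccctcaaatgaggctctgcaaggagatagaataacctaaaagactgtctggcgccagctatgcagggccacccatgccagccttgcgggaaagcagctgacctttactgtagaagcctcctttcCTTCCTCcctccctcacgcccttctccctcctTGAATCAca
Spp1: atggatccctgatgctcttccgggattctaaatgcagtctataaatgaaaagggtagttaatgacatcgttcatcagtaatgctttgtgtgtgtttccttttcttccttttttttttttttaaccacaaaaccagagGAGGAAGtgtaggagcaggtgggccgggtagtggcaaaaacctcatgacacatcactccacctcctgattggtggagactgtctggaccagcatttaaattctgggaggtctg
Cd63: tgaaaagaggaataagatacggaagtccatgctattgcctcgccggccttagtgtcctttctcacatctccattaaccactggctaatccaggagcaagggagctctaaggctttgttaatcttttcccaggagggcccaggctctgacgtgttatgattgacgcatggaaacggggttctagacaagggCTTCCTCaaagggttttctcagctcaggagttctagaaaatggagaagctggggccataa
The match began 41 bases before the start in Trem2, 113 bases before it in Spp1 and 60 bases before it in Cd63. In Trem2, a second run of capitals marks TGAATCA, 9 bases before the start. It matches TGANTCA, a loose AP-1 pattern where N is any base, which 6.7% of all windows held. The letters CATGTG, an E-box used by MITF, were in 12.3% of all windows and, among the studied genes, in Cd9. The E-box CACGTG was in 6.0% of all windows and in none of the 8 genes. These matches describe letters, and whether a factor binds there was not measured.

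The 2 receptors had ratios of MI to sham means of unlike size, and the contrast between the genes was not tested. Trem2 (ENSMUSG00000023992, protein-coding, chr17:48346401-48354147 on GRCm38) is a receptor for lipids and lipoproteins that signals through the adaptor Tyrobp. It was measured at 0.255, 0.271, 0.313 and 0.335 FPKM in sham replicates 1 to 4 and at 6.58, 0.686 and 4.21 FPKM in MI replicates 1 to 3. No MI mouse fell within the sham range, and MI replicate 2 lay closer to the sham-operated mice than to the other MI mice. The mean was 0.294 ± 0.0371 FPKM (SD, n = 4) in sham-operated and 3.83 ± 2.97 FPKM (SD, n = 3) in MI mice, a 13.0-fold ratio, and 18.4-fold without MI replicate 2. Mertk (ENSMUSG00000014361, chr2:128698956-128802894), a tyrosine kinase receptor that recognises apoptotic cells through bridging proteins, was at 1.86, 1.75, 2.12 and 2.39 FPKM in the sham-operated mice. It was at 5.67, 2.80 and 4.68 FPKM in MI replicates 1 to 3, so the groups did not overlap here either. The ratio of means was 2.16, and 2.55 without MI replicate 2.

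The exact two-sided permutation test over the 35 splits of 7 mice into 3 and 4 cannot give a p below 0.0571. Both receptors had that value, as did every other gene of the 9 whose groups did not overlap. No single gene could therefore pass 0.05 by this test.

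Both tetraspanins overlapped between the groups because of MI replicate 2. Cd9 (ENSMUSG00000030342, chr6:125460266-125494791), which organises adhesion and fusion proteins at the cell surface, was at 12.99, 13.3, 15.3 and 13.9 FPKM in the sham-operated mice and at 42.9, 14.8 and 40.2 FPKM in MI replicates 1 to 3. Cd63 (ENSMUSG00000025351, chr10:128900989-128912822), a tetraspanin of late endosomes, lysosomes and exosomes, was at 10.3, 10.96, 11.5 and 10.4 FPKM against 45.0, 11.4 and 36.4 FPKM. MI replicate 2 was within the sham range for both genes, and the other MI mice were well above it. The ratio of means was 2.35 for Cd9 and 2.86 for Cd63, with an exact permutation p of 0.114 for each. Without MI replicate 2 the ratios were 2.99 and 3.76. Cd9 shares 218 exon bases with Gm26728 on the opposite strand, which was listed at no more than 0.011 FPKM.

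Gpnmb (ENSMUSG00000029816, chr6:49036546-49070929), a membrane glycoprotein of lysosomes and phagosomes, was at 0.328, 0.315, 0.411 and 0.375 FPKM in the sham-operated mice and at 6.32, 0.709 and 6.77 FPKM in MI replicates 1 to 3. The groups were apart. MI and sham means stood at a ratio of 12.9, and 18.3 without MI replicate 2.

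The genes of secreted proteins included the most abundant of those studied, Apoe, and those with the largest ratios of MI to sham means, Spp1 and Lgals3. Apoe (ENSMUSG00000002985, chr7:19696109-19699188), the apolipoprotein that carries cholesterol out of macrophages and is a Trem2 ligand, was at 29.4, 25.8, 25.3 and 20.1 FPKM in the sham-operated mice. In MI replicates 1 to 3 it was at 268.1, 30.8 and 198.8 FPKM. The groups did not overlap, but MI replicate 2 exceeded the highest sham-operated mouse by 1.47 FPKM. The ratio of means was 6.60, and 9.29 without MI replicate 2.

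Lgals3 (ENSMUSG00000050335, chr14:47367751-47386160), or galectin-3, a lectin that binds sugars on glycoproteins and damaged lysosomes, was at 0.913, 0.859, 0.937 and 1.12 FPKM in the sham-operated mice. It was at 19.6, 1.43 and 21.7 FPKM in MI replicates 1 to 3, again with no overlap. The gap between MI replicate 2 (106 fragments) and sham replicate 4 (73 fragments) is within counting error. The Lgals3 means differed 14.9-fold, and 21.6-fold without MI replicate 2. Spp1 (ENSMUSG00000029304, chr5:104435118-104441050) encodes osteopontin, a secreted ligand of integrins and CD44. It was at 0.664, 0.704, 0.627 and 0.186 FPKM in the sham-operated mice and at 20.7, 0.707 and 10.02 FPKM in MI replicates 1 to 3. MI replicate 2 was above sham replicate 2 by only 0.003375 FPKM, 86 fragments against 82, so the separation of the groups is smaller than the counting error. The means differed 19.2-fold, and 28.1-fold without MI replicate 2. Spp1 shares 309 exon bases with Gm42793 on the same strand, a gene model marked as still to be tested by experiment, listed at no more than 0.257 FPKM.

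The intracellular lipid chaperone gave the smallest difference. Fabp5 (ENSMUSG00000027533, chr3:10012548-10016607), a fatty acid-binding protein of macrophages, endothelium and skin, was at 8.11, 7.24, 7.04 and 6.03 FPKM in the sham-operated mice and at 13.7, 6.24 and 16.7 FPKM in MI replicates 1 to 3. MI replicate 2 lay inside the sham range and below the sham mean of 7.10 ± 0.855 FPKM (SD, n = 4). The ratio of means was 1.72 with an exact permutation p of 0.229, and 2.14 without MI replicate 2.

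**Figure D1:**
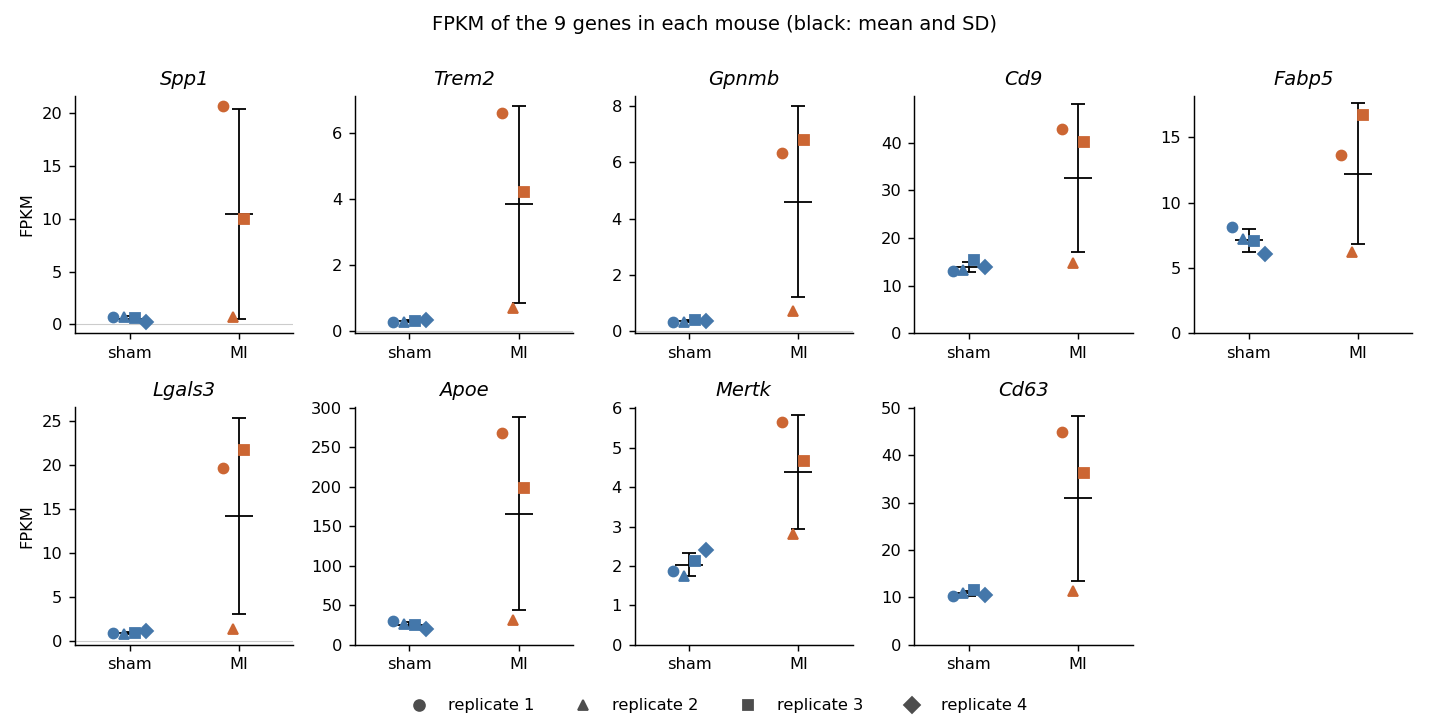
FPKM (vertical axes, linear, each gene on its own scale) of the 9 genes in 4 sham-operated and 3 MI mice, with the mean and SD of each group in black. MI replicates 1 and 3 are above all sham-operated mice for each gene, and MI replicate 2 is close to the sham-operated mice.

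The MI mice all exceeded the sham-operated mice in 6 of the 9 genes, as they did in 12.0% of the 30504 genes detected in 1 mouse or more. The exceptions were Cd9, Cd63 and Fabp5. For differences between mice, log2(FPKM + 1) was used, on which the change of a low gene is understated. MI replicate 2 differed from the sham mean by 3.7% of the mean difference of the other MI mice for Cd63, 4.8% for Spp1 and 5.7% for Cd9. It differed by 9.1% for Lgals3, 9.4% for Apoe, 13.5% for Gpnmb and 16.8% for Trem2. For Mertk the share was 32.2%, and for Fabp5 the difference went the other way, at -15.6%. MI replicate 2 lay within the spread of the sham-operated mice for Cd63, Cd9 and Fabp5 and at its edge for Spp1. These shares rest on 1 mouse and change with the pseudocount.

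**Figure D2:**
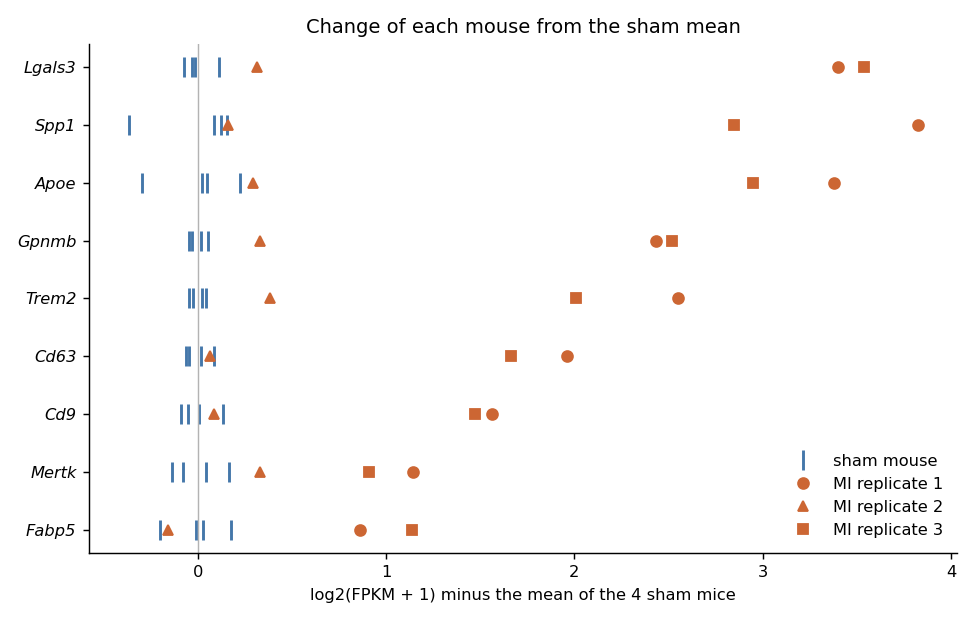
Difference of each mouse from the mean of the 4 sham-operated mice in log2(FPKM + 1), with ticks for sham-operated mice and symbols for MI mice. MI replicate 2 lies among the ticks for Fabp5 at -0.16 and apart from them for Trem2 at 0.38 and Gpnmb at 0.33, while MI replicates 1 and 3 lie far to the right, most apart from each other for Spp1 at 3.82 and 2.85.

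MI replicates 1 and 3 also differed from each other. The ratio of MI replicate 1 to MI replicate 3, corrected for depth, was highest for Spp1, at 2.06 with a 95% counting interval of 1.93 to 2.21. It lay between 0.818 for Fabp5 and 1.56 for Trem2 for the other genes. The interval excluded 1 for 8 of the 9 genes, all but Gpnmb, beside 59.7% of the 5771 genes with at least 1428 fragments in both mice together, the fewest of any of the 9. With 1 mouse on each side, these intervals cover counting error only and compare the libraries, not a condition. Other markers also differed between these mice. Summed FPKM of 4 B cell markers was 33.5 in MI replicate 1 and 5.27 in MI replicate 3, against 0.731 to 1.03 in the sham-operated mice, and that of 5 erythroid genes was 2390 and 1014, against 370.8 to 773.8. Summed neutrophil markers were at 17.0 and 8.15 FPKM, against 0.662 to 1.51, with Ly6g at 0 in all mice. Their part in the level of Spp1 was not tested.

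Across all genes, MI and sham-operated mice were compared with limma on log2(FPKM + 1), over 11431 genes that reached 1 FPKM in 3 or more mice. The filter kept 6 of the 9 genes. It left out Trem2, Gpnmb and Spp1, which reached 1 FPKM only in MI replicates 1 and 3, and Lgals3 passed mainly through the 3 MI mice. At a Benjamini-Hochberg adjusted p under 0.05 in limma, 0 of the 6 genes passed, beside 0.0175% of all genes upwards. At an unadjusted p under 0.05, 5 of the 6 were higher, beside 29.5% of all genes upwards. The adjusted p was 0.108 for Lgals3, Apoe, Mertk, Cd9 and Cd63 and 0.149 for Fabp5.

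The log2 difference (MI minus sham) was 2.42 for Lgals3 (SE 0.73), the 53rd highest of the tested genes, and 2.21 for Apoe (SE 0.68), the 71st. It was 1.23 for Cd63 (SE 0.41), 1.04 for Cd9 (SE 0.34), 0.79 for Mertk (SE 0.19) and 0.61 for Fabp5 (SE 0.29). Of these, Mertk had the smallest unadjusted limma p, 0.00417. The median of all tested genes was 0.21. The volcano plot of the study has lines at a p of 0.05, not adjusted, and at a log2 difference of 0.5 in either direction. Here they are applied to limma p-values and differences of log2(FPKM + 1), which may not be the values that the study plotted. By these lines, 5 of the 6 genes were higher, all but Fabp5, beside 17.8% of all tested genes. Without MI replicate 1 or MI replicate 3, 3 of the 6 were, beside 5.11% and 5.12% of genes. With a filter on the mean FPKM instead, which Trem2, Gpnmb and Spp1 pass only through the MI mice, 8 of the 9 genes were higher, beside 19.8%.

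Without the filter all 9 genes could be fitted. The log2 difference was then 2.28 for Spp1 (SE 0.80), 1.76 for Gpnmb (SE 0.52) and 1.65 for Trem2 (SE 0.47). By the drawn lines 8 of the 9 genes were higher, all but Fabp5, beside 9.33% of 30504 genes, and 0 had an adjusted limma p under 0.05, with values from 0.188 to 0.233, beside 0.0656% of genes upwards. When the recovered fragments were weighted by voom, 7 of the 9 passed the lines, all but Spp1 and Fabp5, beside 24.6% of the 16029 genes fitted. On that scale, without the pseudocount of 1 FPKM, the log2 difference was 3.17 for Trem2 (SE 0.94), 3.13 for Gpnmb (SE 1.02) and 3.41 for Spp1 (SE 1.48).

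Leaving out MI replicate 2 left 2 MI mice and changed the calls. That mouse was singled out by its values in these same data. The smaller SEs and p-values of each fit without it follow in part from that choice. All 6 filtered genes then had an adjusted limma p under 0.05, but so did 56.8% of all genes upwards. Their log2 differences were 3.47 for Lgals3 (SE 0.08), 3.16 for Apoe (SE 0.17), 1.81 for Cd63 (SE 0.09), 1.52 for Cd9 (SE 0.08), 1.03 for Mertk (SE 0.11) and 1.00 for Fabp5 (SE 0.12). Without the filter as well, all 9 genes passed, beside 36.2% of 30076 genes, and all 9 passed the drawn lines, beside 19.4%. Spp1 was then at 3.34 (SE 0.30), Gpnmb at 2.47 (SE 0.06) and Trem2 at 2.28 (SE 0.15).

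The next comparison asked whether the genes differed by more or less than general macrophage genes did. The mean log2(FPKM + 1) of the 10 macrophage markers was subtracted from every gene in each mouse and the same limma fit was run. Relative to the markers, Lgals3 was higher in MI by 1.15 on the log2 scale (SE 0.40, unadjusted p 0.0107, adjusted p 0.0355). It was the only one of the 6 genes called, beside 0.647% of all tested genes upwards. The call was lost, with an adjusted p of 0.0737 to 0.178, when any mouse other than MI replicate 2 was left out. Of all tested genes, 64.1% were called lower relative to the markers. These calls were not stable either, as 0 to 7 genes were higher and 0 to 8 lower when any mouse other than MI replicate 2 was left out. Fibroblast markers also exceeded the macrophage markers, with 4 of 8 past the drawn lines upwards in this fit, beside 0.761% of all genes, and their part in the levels of Lgals3 and Apoe was not tested. Apoe was at 0.94 (SE 0.42, adjusted p 0.0559), Cd63 at -0.04 (SE 0.35, adjusted p 0.921) and Cd9 at -0.23 (SE 0.36, adjusted p 0.549). Mertk was at -0.47 (SE 0.37, adjusted p 0.236) and Fabp5 at -0.65 (SE 0.35, adjusted p 0.0993).

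Without the filter, Spp1 (1.01, SE 0.42, adjusted limma p 0.0374) and Apoe (adjusted limma p 0.0487) joined Lgals3 above the markers, beside 0.364% of genes. Gpnmb at 0.49 (SE 0.42, adjusted limma p 0.254) and Trem2 at 0.38 (SE 0.42, adjusted limma p 0.382) were not called. With a filter on the mean, Lgals3 and Spp1 were above, 2 of the 9 beside 0.847%, and Spp1 passes that filter only through the MI mice. Without MI replicate 2, Lgals3 at 1.62 (SE 0.15) and Apoe at 1.31 (SE 0.16) were called higher, beside 1.66% of genes. Fabp5 at -0.85 (SE 0.16), Mertk at -0.82 (SE 0.15) and Cd9 at -0.33 (SE 0.15) were called lower, beside 95.5% of genes. With neither filter nor MI replicate 2, Spp1, Gpnmb and Trem2 were also higher, at 1.49, 0.63 and 0.43, so that 5 of the 9 genes were above the markers, beside 1.07% of genes, and 3 were below, beside 97.4%.

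The same question was put on the linear scale, as FPKM divided by the geometric mean FPKM of the markers. For Trem2 the ratio was 0.0757, 0.0830, 0.120 and 0.111 in sham replicates 1 to 4 and 0.395, 0.204 and 0.310 in MI replicates 1 to 3. Gpnmb gave 0.0963 to 0.158 in the sham-operated mice and 0.379, 0.211 and 0.499 in the MI mice, and Lgals3 gave 0.263 to 0.370 and 1.18, 0.424 and 1.59. In these 3 genes all MI mice, MI replicate 2 included, were above the sham-operated mice. That made 3 of the 9 genes, beside 2.05% of those 30504 genes. The means differed 3.10-fold for Trem2, 3.05-fold for Gpnmb and 3.37-fold for Lgals3, each with an exact permutation p of 0.0571, the smallest the design allows. Without MI replicate 2 the folds were 3.61, 3.69 and 4.39. Spp1 at 5.53-fold and Apoe at 1.86-fold were then also above each sham-operated mouse, 5 of the 9 genes beside 5.55% of the 30504.

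Fabp5 was the only one of the 9 genes below the sham range in each MI mouse, with a ratio of 2.00 to 2.71 in the sham-operated mice and of 0.822, 1.85 and 1.23 in MI replicates 1 to 3. This pattern was found in 24.7% of the 30504 genes. Without MI replicate 2, Fabp5, Mertk, Cd9 and Cd63 were below the sham range, at 0.440, 0.508, 0.601 and 0.752 of the sham mean, as were 54.5% of the genes. The ratios of Spp1, Apoe, Mertk, Cd9 and Cd63 overlapped between the groups. For Spp1 they were 1.24 and 0.738 in MI replicates 1 and 3, above the highest sham value of 0.241, and 0.210 in MI replicate 2. For Mertk they were 0.340 and 0.344 in MI replicates 1 and 3, under the lowest sham value of 0.536, and 0.831 in MI replicate 2.

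**Figure D3:**
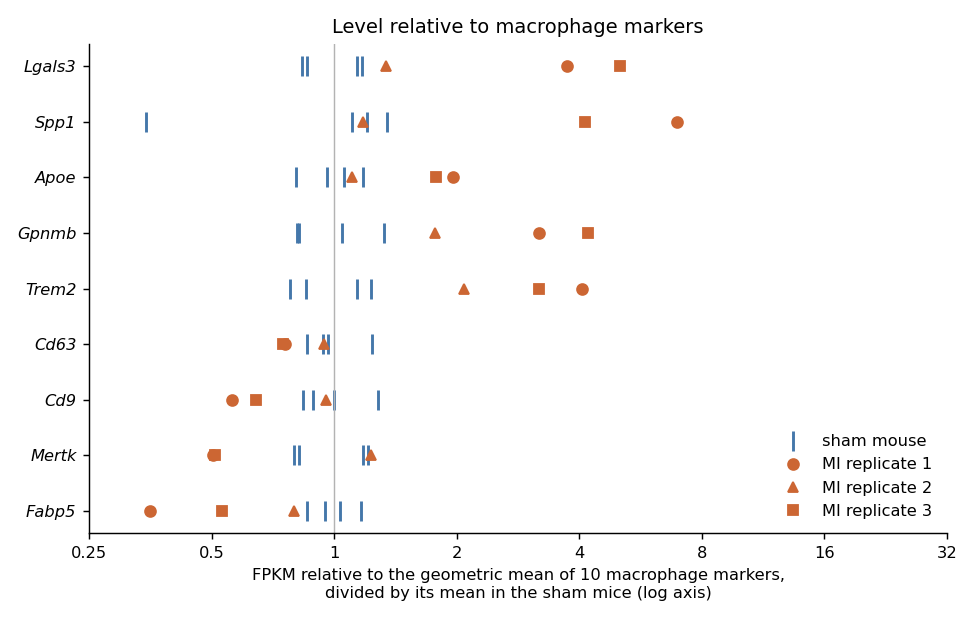
FPKM of each gene divided by the geometric mean FPKM of 10 macrophage markers and by the sham mean of that ratio (log axis), with ticks for sham-operated mice and symbols for MI mice. Lgals3, Trem2 and Gpnmb lie above the sham ticks in all MI mice and Fabp5 lies below them.

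Levels of different genes were compared per length of the longest coding transcript. The length behind the deposited FPKM was the sum of all distinct exons annotated for a gene, with overlapping exons of different transcripts counted again, which was 1.42 times the longest coding transcript for Mertk and 5.62 times for Trem2. Comparisons of 1 gene between mice do not depend on it. Per coding transcript, the sham-operated mice had Apoe highest at 116.2 ± 17.6 FPKM (SD, n = 4), then Cd63 at 49.1 ± 2.54, Fabp5 at 30.4 ± 3.66 and Cd9 at 26.8 ± 1.98. Mertk, Lgals3, Spp1 and Trem2 followed at 2.88, 2.21, 1.94 and 1.65, then Gpnmb at 0.721. Fabp5 and Cd9 overlapped over the sham-operated mice, as did each neighbouring pair from Mertk to Trem2, and the other neighbours did not. In the MI mice the order was Apoe (767.1), Cd63 (140.3), Cd9 (62.9), Fabp5 (52.3), Spp1 (37.3), Lgals3 (32.8), Trem2 (21.5), Gpnmb (9.29) and Mertk (6.22). There every neighbouring pair overlapped when MI replicate 2 was included, and Mertk, ahead of Lgals3, Spp1, Trem2 and Gpnmb in the sham-operated mice, was last by the mean but not in MI replicate 2. Without MI replicate 2 the order of the means was the same, from 1080 for Apoe to 7.34 for Mertk, and 6 of the 8 neighbouring pairs were apart, all but Fabp5 with Spp1 and Spp1 with Lgals3.

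Genes that work with these 9 were counted in lists. Values are log2 differences of log2(FPKM + 1) over genes that passed the filter, a call means passing the drawn lines, which 17.8% of all genes did upwards and 4.8% downwards, and 0 genes of any list had an adjusted limma p under 0.05. In Trem2 signalling, 5 of 7 tested genes were higher and 0 lower, with a median of 0.74. The adaptor Tyrobp was at 1.65 and the phosphatase Ptpn6 at 1.45, whereas the sheddases Adam10 and Adam17 were at 0.50 and 0.31 and were not called. Tyrobp was at 5.34 FPKM in MI replicate 2, inside its sham range of 4.59 to 6.08, unlike Trem2 itself.

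In the clearance of apoptotic cells, 10 of 16 tested genes were higher and 0 lower, with a median of 0.91. The complement genes C1qb and C1qa were highest, at 1.63 and 1.47. Timd4, a phosphatidylserine receptor of resident macrophages, was at -0.27 and the fatty acid transporter Cd36 at -0.43, neither of them called. Beside Apoe, 5 of 13 genes of cholesterol and lipid handling were higher and 1 was lower, and the median of 0.18 was below that of all genes. Npc2 and Lipa, which release and export cholesterol in lysosomes, were at 1.33 and 0.98. Lipoprotein lipase (Lpl) was called lower at -0.71 and Vldlr was at -0.48 without a call. Of genes of the lysosomal membrane, acid pump and lumen, 5 of 9 were higher and 0 lower, with a median of 0.60, led by 2 genes of proteins in the lumen, the hexosaminidase subunit gene Hexa at 1.10 and the protease gene Lgmn at 1.06, while the acid pump gene Atp6v1b2 and the lumenal gene Psap were at 0.10 and 0.04.

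Among osteopontin receptors, 4 of 6 tested genes were higher and 0 lower, with Itgb5 at 1.43 and Cd44 at 1.16, and Itgav at 0.56 and Itga9 at 0.40 were not called. Cd44 passed the filter only through the MI mice, and 3 of the other 5 genes were higher. Of galectin genes and Lgals3bp, whose product binds galectin-3 and is no galectin, 4 of 6 tested were higher. Lgals7 was at 2.22 and Lgals3bp at 1.51. As Lgals7 passed the filter only through the MI mice, its call follows in part from the filter, and 3 of the other 5 were higher. Lgals8 was at 0.34 and Lgals4 at -0.57. In the sham-operated mice Lgals7 was at 0.136 FPKM or less, and in MI replicates 1 to 3 at 4.49, 2.16 and 5.90 FPKM, so MI replicate 2 was clearly apart for this gene. Of the relatives of Cd9 and Cd63, 3 of 7 tetraspanin genes were higher, with the leukocyte tetraspanin Cd53 at 1.86 and Tspan4 at 1.12, whereas Cd151 at 0.20 and Tspan3 at -0.02 were not called.

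The relatives of Fabp5 differed in direction. Only 2 other fatty acid-binding protein genes passed the filter, the cardiomyocyte gene Fabp3, called lower at -0.61, and Fabp4 of endothelium and adipocytes, at 0.49 and not called. Of other genes of alternatively activated and repair macrophages, 3 of 11 were higher and 1 lower, with a median of 0.28. Igf1 was at 1.58 and the interleukin-4 receptor gene Il4ra at 1.25, and Klf4 at -0.05 was not called. Retnla, a classical marker of alternative activation, was lower at -1.06, with 3.30 to 4.67 FPKM in the sham-operated mice and 0.136, 2.35 and 2.44 FPKM in MI replicates 1 to 3. Of the MiT/TFE regulators of lysosomal genes, Mitf was at -0.48 and Tfeb at 0.15, neither called.

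Without MI replicate 2, 34.7% of the 11264 genes then tested passed the drawn lines upwards and 8.51% downwards. Among apoptotic cell clearance genes, 13 of 16 were then higher and Cd36 was lower at -0.68. Of the Trem2 signalling genes 5 of 7 were higher, with a median of 1.11, and of the lysosomal genes 6 of 9, with a median of 0.86. In cholesterol and lipid handling 5 of 13 were higher and 3 lower, and among repair macrophage genes 5 of 11 and 1. Tetraspanin genes gave 4 of 7 and osteopontin receptors 4 of 5. Galectin genes with Lgals3bp gave 3 of 5 higher, and Lgals4 was lower at -1.01. Fabp4 at 0.60 was called higher, and Fabp3 at -0.83 and Mitf at -0.65 were called lower. Cd44 and Lgals7 were below 1 FPKM in too many of these mice to be tested.

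**Figure D4:**
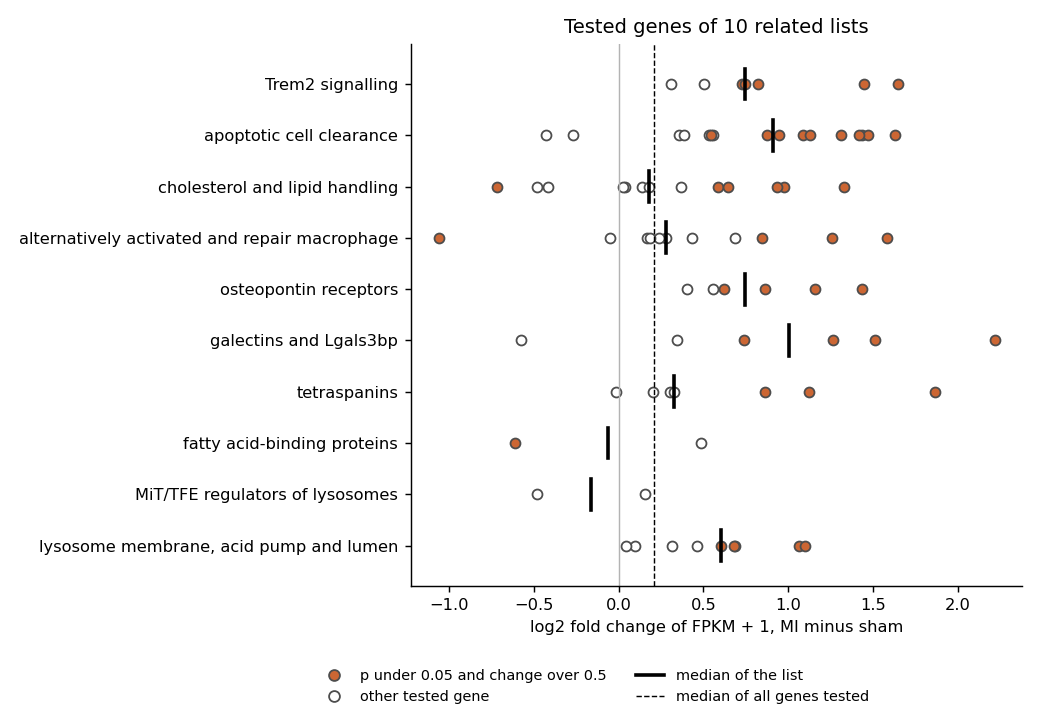
Log2 difference (MI minus sham, horizontal axis) of the tested genes of 10 lists related to the 9 genes, filled where the unadjusted limma p was under 0.05 and the difference over 0.5, with the median of each list as a bar and that of all tested genes, 0.21, as a dashed line. List medians run from -0.16 for the MiT/TFE regulators to 1.00 for the galectins with Lgals3bp.

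For 4 of the 9 genes, the tested genes with the most similar profile were named by the root mean square difference of their log2(FPKM + 1) values from the sham mean over the 7 mice. The mice share their libraries in each such comparison, and no test was made. For Trem2 these were Arhgap45 (0.048), Rhou (0.082) and Srpx (0.084). For Mertk they were Hsp90aa1 (0.05), Inf2 (0.068) and Gm48194 (0.072). For Apoe they were Col5a1 (0.076), Mmp14 (0.096) and Sparc (0.111), and for Spp1 Mmp14 (0.209), Cpxm1 (0.219) and Serpinf1 (0.224).

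Markers of other cell types also differed between the groups. All 8 fibroblast markers passed the drawn lines upwards, with a median of 2.43, against 8 of 8 tested macrophage markers with a median of 1.53. Of the latter, Fcgr1 passed the filter only through the MI mice, and 7 of the other 7 were higher. For fibroblast and macrophage markers without MI replicate 2 the medians were 3.32 and 2.20, the latter over 7 markers. Summed FPKM of 8 cardiomyocyte markers was 13590 to 14880 in the sham-operated mice and 9490, 13540 and 10180 in MI replicates 1 to 3. Summed FPKM of 6 T cell markers, none of which passed the filter, was 0.668 to 1.05 in sham-operated and 6.79, 1.14 and 4.42 in MI mice. The mitochondrial share of the recovered fragments was 26.5% to 27.4% in sham-operated mice and 13.6%, 28.2% and 14.9% in MI replicates 1 to 3. Summed FPKM of 5 smooth muscle and pericyte markers overlapped between the groups, at 155.8 to 172.1 in sham-operated and 161.7 to 162.6 in MI mice. Most of this sum was Rgs5, and single genes differed. Cnn1 was at 0.507 to 0.560 FPKM in sham-operated mice and 6.67, 0.685 and 5.25 FPKM in MI replicates 1 to 3. Kcnj8 was below the sham range in each MI mouse, and the others overlapped. Summed endothelial markers also overlapped, at 127.2 to 145.9 FPKM in sham-operated and 119.2 to 172.0 FPKM in MI mice. Of these, Vwf was above the sham range in each MI mouse, if barely in MI replicate 2. Kdr was below it in each MI mouse, and the others overlapped. Apoe, Spp1, Lgals3, Cd9 and Cd63 are also made by fibroblasts or other cells of the heart. The part of each cell type, and of the mitochondrial share, in their levels was not tested.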

How the data were processed

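Myocardial RNA of 7 mice, 3 MI and 4 sham-operated as named by the labels, was analysed. The authors deposited FPKM values for 56980 genes. The submitters' processing notes name CASAVA 1.8, HISAT2, SAMtools 1.3.1, edgeR and build mm10. The counting program, the annotation and the use of strand are not given in the sources used here. In the file, 94.05% of values above 0 were whole fragments (within 0.05) at the summed length of all distinct exons in GENCODE M21. In the 20589 genes with overlapping exons this share was 93.46%, against 9.91% at the length without overlaps. Depths and fragments were recovered in this way, and the depth sets the counting error given beside low values. Symbols were found for 52073 identifiers (91.4%), and 0 columns were left unused.

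FPKM values were analysed as log2(FPKM + 1), with a pseudocount of 1, by limma 3.58.1 (lmFit, eBayes with trend) in R 4.3.3, without covariates, over the 11431 genes at or above 1 FPKM in 3 mice or more. The Benjamini-Hochberg adjustment was used, with a threshold of 0.05. Single values were compared with exact two-sided permutation tests. The fit was checked on simulated data in which both groups had the spread of the sham-operated mice. That check does not cover the wider spread of the MI mice. Separate mice are the replicates. The genes and the gene lists were chosen with earlier results of these data known, and some genes and 1 list of the plan are not reported here. The 9 genes are given in each comparison, with, from each of the 10 related lists, the genes of largest and smallest log2 difference and, for 4 of the 9 genes, the 3 most similar profiles. As alternatives, the pseudocount was set to 0.1, the filter was dropped or put on the mean FPKM, and TPM, quantile or median log-ratio scaling, sample weights, a replicate block, Csf1r and Adgre1 alone as markers, and leaving out each mouse were tried. After the data were seen, a fit without filter and MI replicate 2, and voom on genes with 10 fragments or more in 3 mice, were added, as were marker ratios, levels and list counts without MI replicate 2. Other software was SciPy 1.17.1, NumPy 2.4.6, matplotlib 3.10.9 and pandas 2.3.3 in Python 3.11.15.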

Additional observations from a re-analysis of the deposited data

Results flagged for a closer look

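The Spp1 level of sham replicate 4 lay far from the other sham-operated mice. It was 0.186 FPKM (20 fragments), against 0.627 to 0.704 FPKM (79 to 82 fragments) in sham replicates 1 to 3. Its gap to the nearest value was 0.851 of the whole range of the 4 mice, above Dixon's critical value at the 95% level. Over the 18 sets of sham values examined (FPKM and ratio to the macrophage markers for each of the 9 genes), chance gives about 0.9. No cause was tested.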

How the results depend on the processing

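The log2 differences of the 9 genes between MI and sham-operated mice kept their direction under each alternative fitted, 17 for the 6 genes past the filter and 4 for Trem2, Gpnmb and Spp1, from 0.35 for Fabp5 under quantile normalization to 3.54 for Lgals3 with sample weights. Relative to the macrophage markers, only Cd63 changed sign: with 1 mouse left out it ran from -0.0877 to 0.0436, the latter without sham replicate 3. Genes at an adjusted limma p under 0.05 numbered 2 higher and 1 lower. They numbered 5 higher with a pseudocount of 0.1, 20 without the filter, 0 and 0 (lower) with a filter on the mean, 0 lower with TPM, 10 and 5 with quantile normalization, 6 and 2 under the median log-ratio, and 5 higher with voom. Sample weights gave 7636 and 2316 and called all 6 fitted genes, but their estimation did not converge and put nearly all weight of the MI mice on 1 mouse. Without filter and MI replicate 2 the counts were 10889 and 1797, with all 9 genes called. With 1 mouse left out, 0 to 6394 were higher and 0 to 1677 lower, the highest counts without MI replicate 2, and 0 to 6 of the 6 genes fitted were called. By the drawn lines 5 of the 6 fitted genes were higher, and of all 9, 8 without the filter (beside 9.33% of genes), 8 with a filter on the mean (19.8%), 7 with voom (24.6%) and 9 without filter and MI replicate 2 (19.4%). With 1 mouse left out, 3 to 6 of 6 fitted were, 3 without MI replicate 1 (beside 5.11%) or 3 (5.12%). TPM scaling called 3741 genes higher and 296 lower by these lines, against 2040 and 549, and median log-ratio scaling 1141 and 1110.

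Relative to the macrophage markers, 74 genes were higher and 7330 lower. Without the filter 24579 were lower and 3 of the 9 genes higher. A filter on the mean gave 2 of the 9 beside 100 genes (0.847%), sample weights 320 higher genes and 2 of the 6 fitted, and no filter without MI replicate 2 gave 323, 29283 and 5. With 1 mouse left out, 0 to 187 genes were higher, 0 to 10756 lower and 0 to 2 of the 6 fitted higher. The count of lower genes was at most 8 when any mouse but MI replicate 2 was left out. The causes were not tested.

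With replicate number as a replicate block, 0 genes were higher and 0 lower in limma (2332 at an unadjusted p under 0.05). Relative to the markers, the replicate block left 13 higher, 57 lower and 0 of the 6 fitted. The correlation of same-numbered mice, taken as deviations from their group means, was 0.074, -0.016 and -0.080. With so few mice and MI replicate 2 apart from the other MI mice, these values cannot show whether the numbers pair the mice.

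Depth limits Trem2, Gpnmb, Spp1 and Lgals3 in the sham-operated mice, where each rested on 20 to 82 fragments. With 3 MI mice, of which 1 stood apart, the exact test could not reach 0.05.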
